A study of Mus musculus with 2 samples.

Results

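The genes of Wnt signalling at the cell surface were examined in hippocampal Cajal-Retzius (CR) cells: the Wnt ligands, the Frizzled receptors, the co-receptors *Lrp5* and *Lrp6*, and the secreted modulators of the *Sfrp*, *Dkk* and *Rspo* families. Members were chosen by symbol alone, which gave 43 of 32285 genes in the count tables: 19 ligands, 10 Frizzled receptors, 2 co-receptors and 4 genes in each of the modulator families. Of the 43, 12 had at least 50 unique molecular identifiers (UMIs, the tags by which captured RNA molecules are counted) over both libraries, 17 had between 1 and 49, and 14 had 0.

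Single-cell RNA-sequencing had been performed with a 3′ kit on mouse hippocampus at P14, with 1 library per genotype. The control library came from *ΔNp73-Cre; Cic flox/+; tdT* mice (3 males and 1 female, pooled) and the knockout library from *ΔNp73-Cre; Cic flox/flox; tdT* littermates (2 males and 2 females, pooled), so that control cells also carried a floxed *Cic* allele and all mice carried the Cre and the tdT reporter. *Cic* encodes capicua, a transcriptional repressor, and *ΔNp73-Cre* is active in CR cells that arise from the cortical hem, septum and thalamic eminence. Cells were sorted as DAPI-negative and tdT-positive, and a barcode was used when it had at least 2000 UMIs, at least 5 of them from *Reln*, the gene of the secreted glycoprotein by which CR cells are recognised.

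Wnt ligands are lipid-modified secreted proteins that bind Frizzled receptors together with LRP5 or LRP6, which stabilises β-catenin, or act through β-catenin-independent routes such as planar polarity. Secreted Frizzled-related proteins (SFRPs) bind the ligands, Dickkopf proteins such as DKK1 block the LRP co-receptors, and R-spondins keep Frizzled receptors at the surface through LGR receptors. The cortical hem, from which hippocampal CR cells arise, is a Wnt-secreting signalling centre of the embryonic forebrain.

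The 1003 control cells and 390 knockout cells had medians of 6224 and 6664 UMIs and shared 0 barcodes. All 8 listed CR markers were detected in both libraries, and their summed level was 11176 CPM for control cells and 11095 CPM for knockout cells (counts per 1000000 UMIs, with mitochondrial and ribosomal protein genes left out). *Reln*, by which the cells were selected, gave 53974 of the 73784 control and 21776 of the 30687 knockout UMIs of this sum. The sum is therefore no independent check of cell identity. *Cic* was at 58.9 CPM in control cells against 51.3 CPM in knockout cells. Its knockout over control ratio was 0.871 (0.714 to 1.06), which checks nothing where the 3′ reads lie outside the deleted part. For this knockout line the paper reports loss of CIC from most, but not all, hippocampal CR cells. Knockout cells here may therefore include some that kept CIC, which was not measured. *Etv4* and *Etv5*, PEA3 transcription factor genes that CIC is known to repress, were 36-fold (20.6 to 68.8) and 4.73-fold (3.69 to 6.08) higher in the knockout library. Intervals beside CPM, shares and ratios are 95% exact intervals that cover counting error alone. With 1 library per genotype, no significance test was possible and no difference between genotypes had a replicate check.

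Sequences before the start of members came from the RefSeq promoter table (GRCm38.p6), in which 27 of 43 members were found. Not found were *Wnt5a*, *Wnt7b*, *Wnt8a*, *Wnt10a*, *Fzd2*, *Fzd3*, *Fzd6*, *Fzd8*, *Lrp5*, *Lrp6*, *Sfrp1*, *Sfrp4*, *Dkk3*, *Dkk4*, *Rspo2* and *Rspo3*. *Wnt4* is shown as the ligand with most UMIs among those found. Of the members with at least 50 UMIs, *Wnt4*, *Wnt5b* and *Fzd10* alone were found. *Wnt5b* is shown because 1 of its 3 annotated starts was the sole one among these genes preceded by a TCF or LEF heptamer. Those are the letters read by the transcription factors of β-catenin signalling. The window shown was thus picked for the heptamer. The window of *Wnt4* lies at chr4:137277385-137277488 on the + strand and ends where the first GENCODE exon begins. That of *Wnt5b* lies at chr6:119449387-119449636 on the - strand. Capitals mark GC boxes (GGGCGG) and the heptamer (CTTTGAT), on either strand.
*Wnt4*: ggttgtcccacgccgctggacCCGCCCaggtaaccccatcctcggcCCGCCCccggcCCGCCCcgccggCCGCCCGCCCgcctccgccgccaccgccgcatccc
*Wnt5b*: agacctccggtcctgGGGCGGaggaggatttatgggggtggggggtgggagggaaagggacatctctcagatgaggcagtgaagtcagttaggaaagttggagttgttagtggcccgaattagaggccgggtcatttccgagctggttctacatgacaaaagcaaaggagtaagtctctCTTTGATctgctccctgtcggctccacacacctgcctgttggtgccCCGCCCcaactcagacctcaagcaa
The *Wnt4* window was 83.7% G and C and held 5 GC boxes, overlapping ones counted each, and the *Wnt5b* window held 2 GC boxes beside the heptamer. The 27 members have 30 promoters in the table. Motifs were counted in all 250 bases before the RefSeq start, also where GENCODE places an exon in them. That holds for *Wnt4*, cut above to 104 bases, and for *Fzd10*, which is counted but not shown. A GC box was found in 21 of these 30, against 32.7% of all 32851 promoters. CTTTGAA or CTTTGAT was found in 3 of 30 (*Wnt5b*, *Wnt11* and *Dkk1*), against 7.48% of promoters. A TATA box (TATAAA) was found in 4 of 30, against 12.4%, and the octamer of CIC (TGAATGAA or TGAATGGA) in 0 of 30, against 2.07%. These are matches of letters, and nothing follows from them about binding.

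Among ligands, *Wnt7b* and *Wnt4* led in both genotypes. *Wnt7b*, a ligand known for β-catenin signalling in brain vessels, had 767 UMIs or 116 CPM (108 to 125) in the control and 311 UMIs or 112 CPM (100.3 to 126) in the knockout. *Wnt4*, which acts through either route depending on the tissue, had 500 UMIs or 75.7 CPM (69.2 to 82.7) and 245 UMIs or 88.6 CPM (77.8 to 100.4). Neither ligand was past 1.5-fold between genotypes, at ratios of 0.968 (0.846 to 1.11) and 1.17 (1.00 to 1.37). By sex of the cells, the *Wnt7b* ratio was 1.12 (0.946 to 1.33) in male and 0.798 (0.619 to 1.02) in female cells. For *Wnt4* it was 1.40 (1.14 to 1.70) and 0.866 (0.653 to 1.15). Whether the sexes differ was not tested. A UMI of *Wnt7b* was found in 43.0% of control and 48.2% of knockout cells, and in 19.6% and 19.2% after every cell was thinned to 2000 UMIs. For *Wnt4* the shares were 33.2% and 35.9%, and 12.6% and 14.1% after thinning. In droplets of 20 to 100 UMIs, which hold mostly free RNA (medians of 89 and 44 UMIs), both ligands were at higher CPM than in the cells. *Wnt7b* was at 176 and 154 CPM in these droplets, and *Wnt4* at 106 and 98.4 CPM. The part of free RNA in the *Wnt7b* and *Wnt4* counts of cells was not tested beyond the subtraction listed among the alternatives.

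*Wnt5a* and *Wnt5b*, closely related ligands known for β-catenin-independent signalling, were lower. *Wnt5a* was at 18.3 CPM (15.2 to 21.9) in control and 18.1 CPM (13.4 to 23.8) in knockout cells, and *Wnt5b* at 11.2 CPM (8.80 to 14.1) and 13.4 CPM (9.42 to 18.4). Their ratios of 0.986 (0.695 to 1.38) and 1.19 (0.782 to 1.79) both had intervals that held 1. *Wnt2b*, a ligand of the cortical hem, had 33 UMIs in 32 control cells and 13 UMIs in 12 knockout cells. It was at 5.00 and 4.70 CPM, and had 0 UMIs in the droplets of either library. *Wnt3a* and *Wnt8b*, also ligands of the embryonic hem, had few or no UMIs: *Wnt3a* had 3 control UMIs and 1 knockout UMI, and *Wnt8b* had 0. Among the remaining ligands, *Wnt9a* had 7 UMIs and *Wnt11* had 6 over both libraries, *Wnt2*, *Wnt3*, *Wnt6* and *Wnt16* had 1 each, and *Wnt1*, *Wnt7a*, *Wnt8a*, *Wnt9b*, *Wnt10a* and *Wnt10b* had 0. A count of 0 allows a level of up to 0.454 CPM and a share of up to 0.299% of cells with a UMI in the control, and up to 1.08 CPM and 0.769% in the knockout. The share limits cells in which a UMI was captured, not cells that express the gene.

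Of the Frizzled receptors, *Fzd3* made up most of the UMIs. *Fzd3*, known for axon guidance through planar polarity signalling, had 694 UMIs or 105 CPM (97.4 to 113) in the control and 309 UMIs or 112 CPM (99.6 to 125) in the knockout, a ratio of 1.06 (0.926 to 1.22). It was found in 44.5% of control and 48.2% of knockout cells (18.1% and 17.2% after thinning), and was at 76.2 and 56.3 CPM in droplets. All 10 receptors together were at 126 CPM in control cells against 139.6 CPM in knockout cells. *Fzd10* was at 8.63 CPM (6.54 to 11.2; 57 UMIs in 50 cells) in the control and 14.1 CPM (10.03 to 19.3; 39 UMIs in 30 cells) in the knockout. *Fzd8* was at 7.88 CPM (5.88 to 10.3) and 7.95 CPM (4.98 to 12.04). Both are receptors with β-catenin activity in other tissues. *Fzd4* had 31 UMIs, *Fzd6* 7, *Fzd1* and *Fzd7* 4 each and *Fzd5* 1, whereas *Fzd2* and *Fzd9* had 0.

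The co-receptors LRP5 and LRP6 carry the signal of a bound ligand into the cell. *Lrp6* had 741 UMIs or 112 CPM (104 to 121) in the control and 320 UMIs or 116 CPM (103 to 129) in the knockout, a ratio of 1.03 (0.901 to 1.18). *Lrp5* was at 4.54 CPM (3.07 to 6.49; 30 UMIs in 26 cells) in the control and 13.7 CPM (9.72 to 18.9; 38 UMIs in 12 cells) in the knockout. Of the 38 knockout UMIs of *Lrp5*, 17 lay in 1 cell of 5092 UMIs. Of the 12 knockout cells with a *Lrp5* UMI, 9 had 1, 1 had 2 and 2 had more than 5, the cell of 17 included. *Lrp5* was also at 10.1 and 16.1 CPM in the droplets, above its level in the cells.

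Each family of secreted modulators was represented mainly by 1 gene. *Dkk3*, a divergent Dickkopf gene whose product does not block LRP co-receptors as DKK1 does, had more UMIs than any other member. It had 2394 UMIs or 363 CPM (348 to 377) in the control and 1160 UMIs or 419 CPM (396 to 444) in the knockout, in 82.8% and 86.9% of cells. After thinning it was found in 48.5% and 49.7% of cells, and in droplets it was at 94.5 and 108 CPM. *Dkk1* and *Dkk2* had 0 UMIs, and *Dkk4* had 3, all in the knockout. *Rspo3*, an R-spondin made by the hem, was at 115 CPM (107 to 123; 759 UMIs) in the control and 148 CPM (134 to 163; 409 UMIs) in the knockout. It was found in 42.7% and 50% of cells, in 19.6% and 25.1% after thinning, and was at 41.8 and 51.7 CPM in droplets. *Rspo2* had 29 UMIs, *Rspo1* had 16 and *Rspo4* had 0. Levels of different genes are UMIs of a 3′ library, which are not divided by transcript length.

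**Figure D1:**
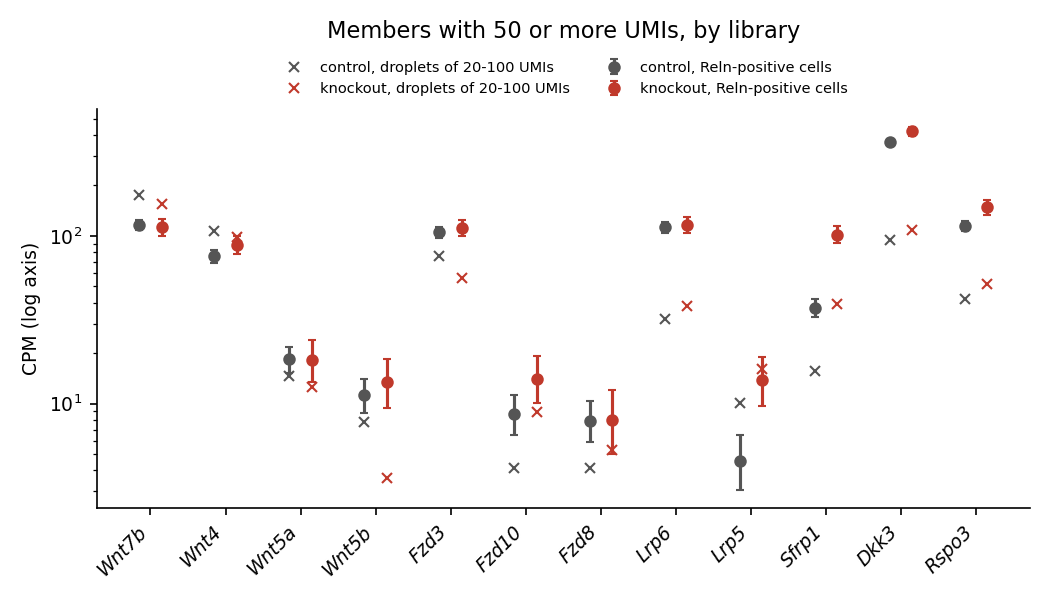
Summed level in CPM (log axis) of the 12 members with at least 50 UMIs, in Reln-positive cells (circles, bars for 95% counting intervals) and in droplets of 20 to 100 UMIs (crosses), in the control and the knockout library. *Dkk3* was highest in both libraries, *Sfrp1* was at 37.3 CPM in control and 102 CPM in knockout cells, and *Wnt7b*, *Wnt4* and *Lrp5* were higher in droplets than in the cells of the same library.

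*Sfrp1*, a secreted inhibitor that binds Wnt ligands, was the member that differed most clearly between the genotypes. It lies on chromosome 8 of GRCm38 from 23411502 to 23449632. In the control it had 246 UMIs in 144 of 1003 cells, a level of 37.3 CPM (32.8 to 42.2). In the knockout it had 281 UMIs in 132 of 390 cells, a level of 102 CPM (90.1 to 114). It was thus 2.73-fold (2.29 to 3.25) higher in the knockout library. A *Sfrp1* UMI was found in 14.4% (12.2 to 16.7) of control cells and in 33.8% (29.2 to 38.8) of knockout cells. After thinning, the shares were 6.58% (5.13 to 8.30) and 16.4% (12.9 to 20.5). Among droplets they were 0.110% and 0.154%, at 15.6 and 39.5 CPM, so that *Sfrp1* was also higher in the free RNA of the knockout library.

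The *Sfrp1* UMIs were spread over many cells. In the control, 95 cells had 1 UMI, 27 had 2, 15 had 3 to 5 and 7 had more, with a highest count of 8. In the knockout, 57 cells had 1 UMI, 35 had 2, 38 had 3 to 5 and 2 had more, with a highest count of 7. The 7 listed astrocyte markers summed to 49.4 CPM in control and 39.4 CPM in knockout cells, where *Aqp4* and *Gja1* were at 0, against 111 and 237 CPM in droplets. In *Sfrp1*-positive cells these markers were at 18.6 CPM in control cells against 36.5 CPM in knockout cells, below the 55.4 and 40.9 CPM of *Sfrp1*-negative cells. The sum of the 3 pyramidal neuron markers was higher in *Sfrp1*-positive cells, at 79.9 against 40.9 CPM in the control and 76.1 against 36.5 CPM in the knockout. *Neurod6* was at 0 in both libraries. In control *Sfrp1*-positive cells *Spink8* was at 0 too, so that their sum was *Fibcd1* alone. Likewise the sum of the 4 mural markers was at 101 against 78.2 CPM and at 104 against 62.2 CPM, with *Acta2* at 0. In control *Sfrp1*-positive cells *Pdgfrb* and *Vtn* were at 0 too, which left *Rgs5* alone. In knockout *Sfrp1*-positive cells *Pdgfrb* was at 0 too. The 4 fibroblast markers, of which *Col1a2* and *Lum* were at 0 in both libraries, differed by genotype, at 8.79 CPM in control and 16.6 CPM in knockout cells. In *Sfrp1*-positive cells they were at 2.79 CPM (3 UMIs) and 21.4 CPM (20 UMIs), against 9.95 and 14.2 CPM in *Sfrp1*-negative cells. *Dcn* was also at 0 in all knockout cells and in control *Sfrp1*-positive cells, so that the sums there were *Col1a1* alone. The 8 CR markers, *Reln* included, were at 11524 CPM in *Sfrp1*-positive against 11109 CPM in *Sfrp1*-negative control cells, and at 11536 against 10870 CPM in the knockout. Oligodendrocyte and granule neuron sums were lower in *Sfrp1*-positive cells of both libraries. GABAergic neuron and erythrocyte sums were higher, on at most 4 UMIs. Precursor, microglia, endothelial and ependymal or choroid sums went opposite ways in the libraries. What part these lists have in the *Sfrp1* values was not tested. The other members of the family stayed low: *Sfrp4* had 14 and 6 UMIs, and *Sfrp2* and *Sfrp5* had 0.

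Across genotypes, 3 of the 12 members with at least 50 UMIs were at least 1.5-fold higher in the knockout (*Sfrp1*, *Lrp5* and *Fzd10*), where 4.38% of 11194 genes were. None of the 12 was lower by that fold, where 2.97% of genes were. These shares depend on counts: the share higher was 7.5% of 13328 genes at a minimum of 20 UMIs and 2.73% of 9442 at 100. *Lrp5* had 68 UMIs and *Fzd10* 96, so 4.38% is no close measure for them. The share among genes of such counts was not computed. *Lrp5* was 3.02-fold (1.82 to 5.05) higher, and without its cell of 17 UMIs 1.67-fold (0.911 to 3.02). The latter ratio still includes the other of the 2 knockout cells with more than 5 *Lrp5* UMIs. Besides these, 9 of the 390 knockout cells had 1 *Lrp5* UMI and 1 had 2. Of the 1003 control cells, 23 had 1, 2 had 2 and 1 had 3 to 5. The higher *Lrp5* level of the knockout thus rests on the 2 cells with more than 5 UMIs. No ratio without both cells was computed. *Fzd10* was 1.63-fold (1.06 to 2.50) higher on 96 UMIs, but 1.49-fold (0.929 to 2.36) without high-respiratory cells and 1.25-fold (0.657 to 2.27) in male cells, both under 1.5-fold. In female cells *Fzd10* was 2.47-fold (1.07 to 6.20) higher, on 9 control and 19 knockout UMIs, which is under the gene minimum. *Rspo3* and *Dkk3* differed by less than 1.5-fold, at 1.29 (1.14 to 1.45) and 1.16 (1.08 to 1.24). The median ratio of the 12 members was 1.16, against 1.01 over all genes tested. Summed by role, the ratio was 2.63 (2.22 to 3.13) for the *Sfrp* genes, 1.27 (1.12 to 1.43) for the *Rspo* genes and 1.16 (1.08 to 1.24) for the *Dkk* genes. It was 1.05 (0.956 to 1.15) for the ligands, 1.10 (0.977 to 1.25) for the Frizzled receptors and 1.11 (0.975 to 1.26) for the co-receptors.

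**Figure D2:**
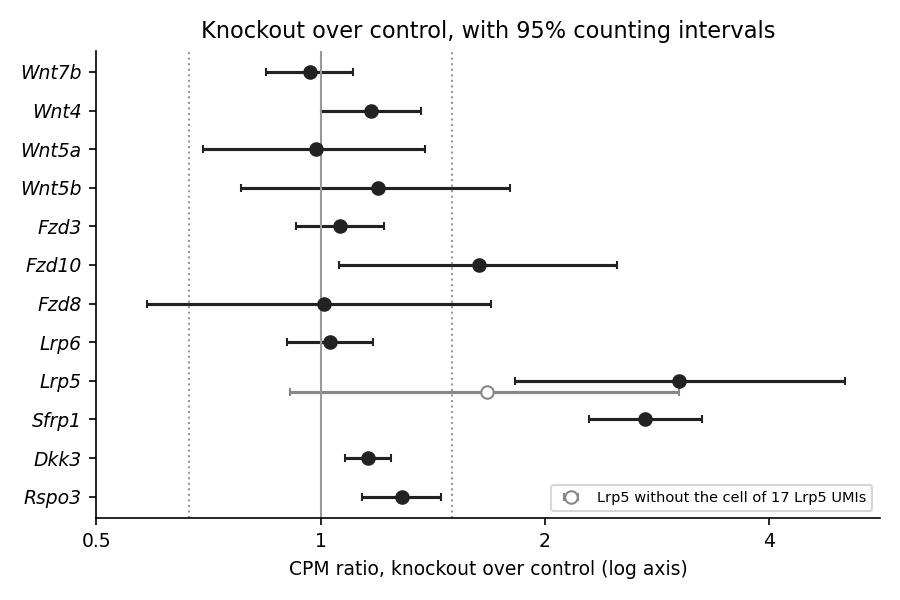
Knockout over control ratio of CPM (log axis) for the 12 members, with 95% counting intervals; dotted lines stand at 1.5-fold and the open circle is *Lrp5* without its cell of 17 UMIs. *Sfrp1* at 2.73 and *Lrp5* at 3.02 lie past 1.5-fold with their whole interval, and *Lrp5* without that cell has an interval from 0.911 to 3.02. The open circle still includes another knockout cell with more than 5 *Lrp5* UMIs, and the higher *Lrp5* level rests on that cell and the cell of 17.

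Of 66 other genes of the pathway, 43 had at least 50 UMIs, with a median ratio of 0.993. *Lgr4*, a receptor for R-spondins, was higher in the knockout at 34 against 22.1 CPM, a ratio of 1.54 (1.17 to 2.01). *Ptk7*, a pseudokinase receptor of planar polarity signalling, was lower at 2.17 against 6.66 CPM, a ratio of 0.325 (0.113 to 0.767) on 6 and 44 UMIs. The other 41 were within 1.5-fold. Thus 1 of 43 was higher and 1 lower, where 4.38% and 2.97% of all 11194 genes were, so these counts do not set the pathway genes apart.

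Wnt ligands and receptors were next compared between groups of CR cells set by a UMI of *Cck*, of *Grik1*, or of *Chst8* or *Alkal2*, genes with higher counts in some hippocampal CR cells. A member was taken as different when it was past 1.5-fold in the same direction in both libraries. As between genotypes, the share of all genes past the fold was larger at a lower gene minimum in each of these divisions. A cell without a UMI may still express the gene, and positive cells were deeper: their medians ran from 6397 to 6721 UMIs in control and from 6789 to 7869 in knockout cells, against 6059 to 6148 and 6361 to 6650 in negative cells.

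*Cck*, a neuropeptide gene, had a UMI in 324 control and 110 knockout cells. In these cells *Wnt5a* and *Fzd10* were higher, that is 2 of 12 members where 1.55% of genes were, and none was lower, where 2.17% of genes were. *Wnt5a* was at 25.8 against 14.4 CPM in the control, 1.79-fold (1.23 to 2.60), and at 26.4 against 14.7 CPM in the knockout, 1.79-fold (0.972 to 3.26). *Fzd10* was at 14.0 against 5.80 CPM, 2.41-fold (1.39 to 4.25), and at 26.4 against 9.14 CPM, 2.89-fold (1.47 to 5.75). After thinning, and in female cells alone, neither had 50 UMIs left. The thinned knockout ratio of *Wnt5a* was 0.404 (0.00956 to 2.66), and in male cells its knockout ratio was 1.47 (0.544 to 3.63), under 1.5-fold. Some members within 1.5-fold had similar ratios in the libraries: *Wnt7b* had ratios of 1.37 (1.18 to 1.59) and 1.37 (1.08 to 1.74), *Dkk3* of 1.18 and 1.17, and *Rspo3* of 0.799 and 0.780. *Sfrp1* had ratios of 0.925 (0.700 to 1.21) and 0.869 (0.656 to 1.14). Among the pathway genes, 3 of 43 were lower in *Cck*-positive cells and none was higher. *Lef1*, a β-catenin-dependent transcription factor, was at 3.93 against 11.8 CPM in the control, and had 0 UMIs in knockout *Cck*-positive cells against 20 in negative cells. *Axin2*, a feedback target of β-catenin signalling, had ratios of 0.576 (0.340 to 0.940) and 0.635 (0.283 to 1.30), and *Draxin*, a secreted inhibitor and guidance molecule, of 0.450 (0.244 to 0.785) and 0.219 (0.0429 to 0.695).

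*Grik1*, a kainate receptor gene, had a UMI in 194 control and 70 knockout cells, which were 19.3% and 17.9% of cells. Its own level was lower in the knockout, at 48.1 against 79.7 CPM, a ratio of 0.604 (0.495 to 0.731). Whether *Grik1*-positive cells are the same group of cells in both libraries was not tested. *Sfrp1* was the sole member past 1.5-fold in both libraries, 1 of 12 higher where 1.13% of genes were, and 0 lower where 2.61% were. It was at 74.0 CPM in *Grik1*-positive and 27.6 CPM in *Grik1*-negative control cells, 2.69-fold (2.06 to 3.48), and at 168 against 85.7 CPM in the knockout, 1.96-fold (1.51 to 2.53). The level in *Grik1*-negative knockout cells (191 UMIs) was thus similar to or above that of *Grik1*-positive control cells (102 UMIs). No interval was computed for that pair. By sex of the cells, the knockout ratio was 1.14 in male and 3.09 in female cells. *Wnt7b* was lower in *Grik1*-positive cells, at ratios of 0.703 (0.574 to 0.856) in the control, within 1.5-fold, and 0.596 (0.415 to 0.836) in the knockout. Of the 43 pathway genes, 0 were past 1.5-fold in both libraries.

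*Chst8*, a sulfotransferase gene, or *Alkal2*, a ligand gene of the ALK receptor, had a UMI in 232 control and 91 knockout cells. In them *Sfrp1* and *Lrp5* were lower, 2 of 12 members where 2.92% of genes were, and 0 were higher, where 1.18% were. *Sfrp1* was at 25.1 against 41.3 CPM in the control, a ratio of 0.608 (0.424 to 0.853), and at 63.3 against 116 CPM in the knockout, a ratio of 0.545 (0.391 to 0.746). In female cells, and with positivity from 2 UMIs, *Sfrp1* was not past 1.5-fold in both libraries. *Lrp5* had 4 UMIs in the positive cells of each library, with ratios of 0.468 (0.119 to 1.35) and 0.311 (0.0802 to 0.873). Both knockout cells with more than 5 *Lrp5* UMIs, the cell of 17 included, were among the negative cells. The knockout ratio thus rests on these 2 cells, and none was computed without them. A *Lrp5* UMI was found in 3.30% of positive and 3.01% of negative knockout cells, and in 1.72% and 2.85% of control cells. Outside the 2 cells, no lower *Lrp5* level was shown in positive knockout cells. Receptors of higher level leaned the other way without passing 1.5-fold in both libraries. *Lrp6* had ratios of 1.51 (1.29 to 1.76) and 1.29 (1.01 to 1.64), and *Fzd3* of 1.22 (1.03 to 1.44) and 1.59 (1.25 to 2.01). *Wnt5b* had 1 UMI in positive knockout cells, a ratio of 0.0735 (0.00181 to 0.436), but a ratio of 0.977 (0.540 to 1.69) in the control. Among pathway genes, *Ror2*, a receptor for WNT5A, and *Myc* were lower in both libraries, on 3 and 1 UMIs and on 6 and 2 UMIs in positive cells.

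The 83 control and 34 knockout cells in which nuclear oxidative phosphorylation genes made up at least 1.8% of UMIs (high-respiratory cells; 37 and 17 cells lay between 1.5% and 2.2%) were deeper, with medians of 13502 and 14230 UMIs against 6064 and 6420. Between these and the other cells 19.1% of all genes were higher and 16.4% lower in both libraries, and of 12 members 1 was higher and 4 were lower. Counts this small cannot be set apart from so high a background. The median ratio of the 12 members was 0.628 in the control and 0.804 in the knockout, against 0.905 and 0.927 over all genes tested. *Wnt4* was at 144 against 64.3 CPM in the control, 2.24-fold (1.83 to 2.74), and at 132 against 80.5 CPM in the knockout, 1.64-fold (1.20 to 2.21). *Dkk3* was lower, at 230 against 385 CPM and at 264 against 448 CPM. The other members that were lower, *Wnt5b*, *Fzd8* and *Lrp5*, had 2 to 5 UMIs in the high-respiratory cells of each library. Of the 43 pathway genes, 4 were higher and 8 lower, in the same setting of a high background. Higher were *Gsk3a* and *Csnk1e*, kinases that phosphorylate components of the pathway, at ratios of 2.32 and 2.05 and of 1.92 and 2.11 in control and knockout. *Pygo1*, a β-catenin cofactor, had ratios of 1.63 and 3.60, and *Myc*, a target gene, of 2.88 and 2.08. Of the lower genes, *Porcn*, the acyltransferase that lipidates Wnt ligands, had ratios of 0.525 and 0.569, and *Gpc4*, a cell surface glypican, of 0.658 and 0.292. *Celsr3* and *Prickle1*, genes of planar polarity, had ratios of 0.354 and 0.627 and of 0.335 and 0.333, and *Ccnd1*, a cyclin gene, of 0.428 and 0.180. In control high-respiratory cells these 3 genes had 20, 9 and 4 UMIs, and the control interval of *Ccnd1* (0.113 to 1.16) held 1. The control interval of *Pygo1* was 1.00 to 2.56, on 25 UMIs. The remaining 3 were *Dvl2*, *Vangl1* and *Vangl2*.

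**Figure D3:**
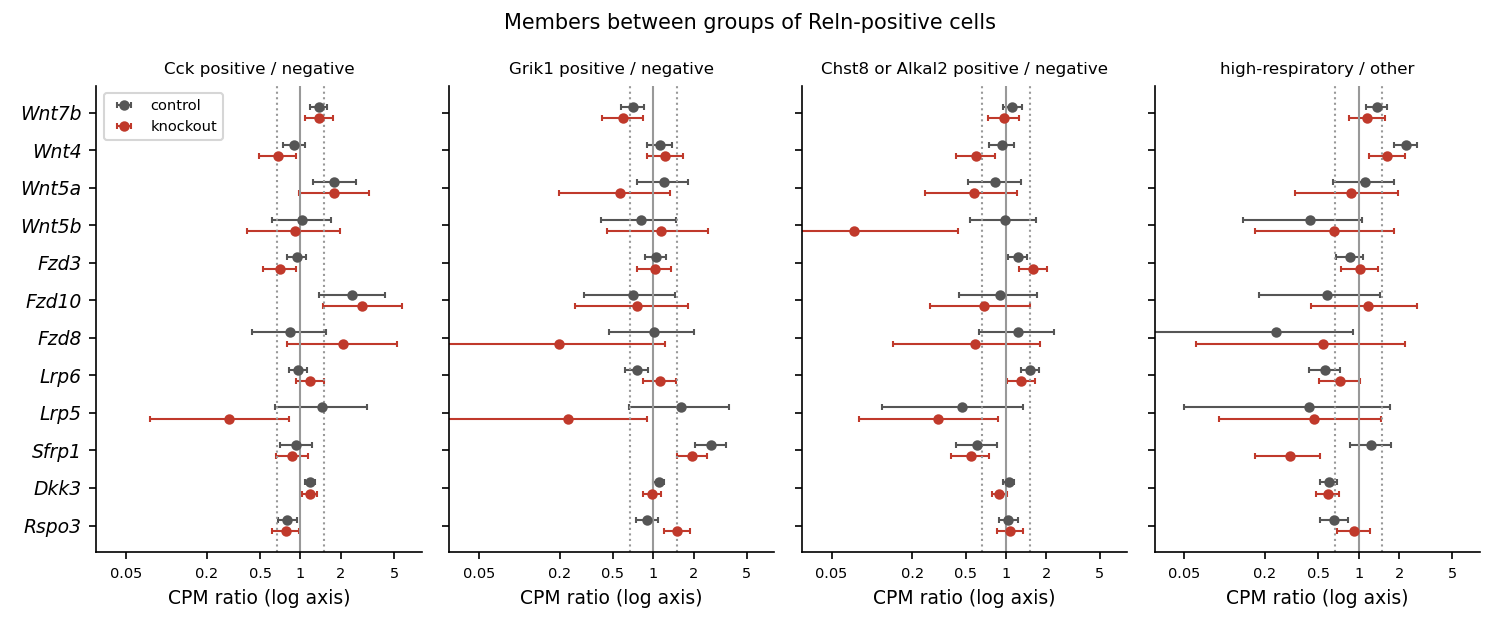
Ratio of CPM (log axis) of the 12 members between positive and negative cells for *Cck*, *Grik1* and *Chst8* or *Alkal2*, and between high-respiratory and other cells, in control and knockout, with 95% counting intervals; intervals that reach below 0.03 run off the axis and dotted lines stand at 1.5-fold. *Fzd10* lies at 2.41 and 2.89 for *Cck*, *Sfrp1* at 2.69 and 1.96 for *Grik1* and at 0.608 and 0.545 for *Chst8* or *Alkal2*.

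The genotype difference of *Sfrp1* had an interval above 1 in 9 of 10 groups of cells, the sexes included. These groups are overlapping splits of the same cells, from 1 library per genotype, and are not replicates of the difference. It was 3.06-fold (2.44 to 3.85) in male cells, from 34.5 to 106 CPM, and 2.16-fold (1.58 to 2.97) in female cells, from 44.6 to 96.3 CPM. It was 2.59-fold (1.86 to 3.60) in *Cck*-positive and 2.76-fold (2.24 to 3.41) in *Cck*-negative cells, and 2.27-fold (1.69 to 3.04) in *Grik1*-positive and 3.11-fold (2.49 to 3.89) in *Grik1*-negative cells. For *Chst8* or *Alkal2* it was 2.52-fold (1.63 to 3.92) in positive and 2.81-fold (2.32 to 3.41) in negative cells. The exception was the group of high-respiratory cells, in which *Sfrp1* was at 44.5 CPM in the control (42 UMIs) and 34.7 CPM in the knockout (15 UMIs), a ratio of 0.780 (0.402 to 1.44). In all other cells the ratio was 3.16 (2.62 to 3.81). Whether these ratios differ was not tested, and how many of all genes differ in this way was not counted.

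**Figure D4:**
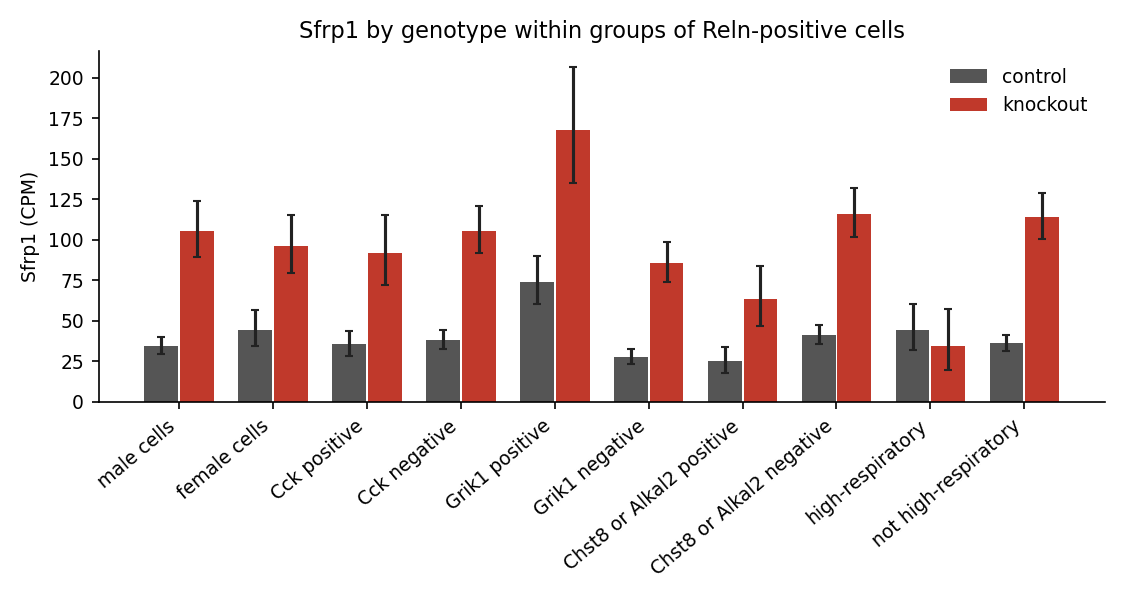
*Sfrp1* level in CPM in control (grey) and knockout (red) cells within groups set by sex, by *Cck*, *Grik1* and *Chst8* or *Alkal2*, and by the share of oxidative phosphorylation genes; bars start at 0 and error bars are 95% Poisson intervals. The knockout bar is higher in every group but the high-respiratory cells, at 34.7 against 44.5 CPM.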

How the data were processed

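Per the labels, hippocampal tdT-positive cells of 4 pooled mice per genotype made 1 library each. The authors deposited raw UMI counts of each gene in every barcode, unfiltered and not normalized. The submitters' processing notes name Cell Ranger 8.0.1 and mm39, the matrix header names Cell Ranger 4, and the methods name another version and the mm10 reference. Whether intronic reads were counted, and on which strand, is not given in the sources used here, so overlapping genes are uncertain. Ensembl identifiers were used to look up positions in GENCODE M21 (GRCm38).

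The matrices held 16336796 control and 6777071 knockout UMIs, and the *Reln*-positive cells 6601724 and 2765943 UMIs after removal of mitochondrial (mt-) and ribosomal protein genes (Rpl, Rps, Mrp). UMIs were summed over cells and scaled to 1000000 (CPM). Intervals (95%) are exact Poisson for CPM, exact binomial (Clopper-Pearson) for shares, and exact for a ratio of 2 Poisson counts. A limit for a count of 0 is 3 counts. Calls were counted over genes with at least 50 UMIs in both libraries together, and a ratio of at least 1.5 or its inverse was counted as past the fold. Cells were not clustered, and doublets were kept, except in an alternative that removed the 8 control and 1 knockout cells of highest Scrublet score. Sex of cells was read from *Xist* and 4 Y-linked genes (702 male, 227 female and 74 unclear control cells; 194, 176 and 20 knockout cells). Every member with at least 50 UMIs is named with its values. Pathway genes past the fold in a comparison are named with their values, at most 5 a direction, ranked by whichever interval bound lay closest to 1 over both libraries. The members, cell groups and lists were chosen with earlier results of these data known. Python 3.11.15, numpy 2.4.6, scipy 1.17.1 and scanpy 1.11.5 were used. Genotype calls and ratio intervals were tested on simulated Poisson counts of genes, with 200 genes changed. These held no cells, so cell groups and UMIs heaped in single cells were not covered. Alternatives covered the limits on UMIs, *Reln*, genes and fold, quality limits, doublets, scaling, thinning to 2000 UMIs, subtraction of free RNA, sex, high-respiratory cells and the cell with most UMIs of each gene.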

Additional observations from a re-analysis of the deposited data

Results flagged for a closer look

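Between high-respiratory and the other cells, the *Sfrp1* ratio was 1.23 in the control (0.864 to 1.73) and 0.305 in the knockout (0.168 to 0.512). The control interval held 1, so no direction was shown there. This and the next result were picked, from all members and cell groups compared, because the 2 ratios lay on opposite sides of 1 with intervals that did not overlap. The difference between these ratios was not tested. The knockout value rests on 15 UMIs in 34 cells.

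Between *Grik1*-positive and *Grik1*-negative cells, the *Rspo3* ratio was 0.903 in the control (0.749 to 1.08) and 1.51 in the knockout (1.20 to 1.89). The control interval held 1 here too, and the difference between the ratios was not tested either.

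Barcodes with at least 2000 UMIs but fewer than 5 *Reln* UMIs were outside the comparisons. In the 8 of these in the control, *Sfrp1* was at 136 CPM, on 5 UMIs and with at most 2 in a barcode, against 37.3 CPM in *Reln*-positive cells. In the 16 of these in the knockout, *Wnt9a* was at 127 CPM, on 6 UMIs of which 5 lay in the same barcode, against 0.723 CPM in *Reln*-positive cells.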

How the results depend on the processing

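*Sfrp1* stayed past 1.5-fold between the genotypes in all 17 alternatives, from 2.16-fold in female cells to 3.16-fold without high-respiratory cells. The alternatives on the gene minimum and the fold cannot change a ratio. All alternatives reuse the same libraries, so they are no replicate check. The 3 members higher in the knockout fell to 1, *Sfrp1*, after thinning to 2000 UMIs, in male or in female cells alone, and at a gene minimum of 100 UMIs, in part because fewer members reached the minimum (7, 10, 7 and 9). *Fzd10* was also lost without high-respiratory cells and at 2-fold, and *Lrp5* without the top cell of each gene. The 2 members higher in *Cck*-positive cells fell to 0 after thinning and to 1 in male cells, at 2-fold and with positivity from 2 UMIs (*Fzd10* each time), at a minimum of 100 UMIs (*Wnt5a*) and in female cells, where it was *Wnt7b* and both original members were lost. There, 1 member (*Fzd4*) was lower at a minimum of 20 UMIs. For *Grik1*, the count higher fell from 1 to 0 in male cells and at 2-fold, and the count lower rose from 0 to 1 after thinning (*Lrp6*), in male cells and without the top cell of each gene (*Fzd10*), and to 3 with positivity from 2 UMIs. For *Chst8* or *Alkal2*, the count lower fell from 2 to 1 after thinning, in male cells, at a minimum of 100 UMIs and without the top cell (*Sfrp1* each time), at 2-fold (*Lrp5*) and with positivity from 2 UMIs, where it was *Wnt5a* and both original members were lost, and to 0 in female cells. The count higher there rose from 0 to 1 in female cells (*Lrp6*) and at a minimum of 20 UMIs (*Wnt2b*). For high-respiratory cells, the count lower fell from 4 to 1 after thinning (*Lrp6*, not among the 4), in male cells (*Dkk3*) and at 2-fold (*Lrp5*), and to 2 in female cells (*Dkk3* and *Sfrp1*, the latter not among the 4) and at a minimum of 100 UMIs (*Wnt5b* and *Dkk3*), and the count higher fell from 1 to 0 in male cells and at 2-fold. Ratios that changed direction were *Wnt5a* in knockout *Cck*-positive cells after thinning (0.404) and, for high-respiratory cells, control *Wnt5b* (1.38) and *Lrp5* (1.55) after thinning, control *Lrp5* at a limit of 1.5% (1.04), knockout *Wnt5b* within 3 median absolute deviations (1.09) and knockout *Fzd8* in female cells (2.44). Beyond the smaller number of genes or cells these alternatives test, the cause was not tested. Centring on the median ratio moved the genes higher and lower in high-respiratory cells from 19.1% and 16.4% to 21.5% and 11.9%. Of 178 counts over comparisons and alternatives, 145 stayed within 1.5 times the main count. These include counts of 0 that stayed at 0, as for members lower in the knockout. Numbers were compared and not names. Within 3 median absolute deviations, for example, the members lower in high-respiratory cells were *Lrp6*, *Dkk3* and *Fzd8*, and *Lrp6* was not among the main 4. Of 401 ratios, 384 moved by less than counting error. Ratios of mostly the same cells were compared, so small moves are no independent check. These ratios include those under the gene minimum and fold alternatives, which could not move. No paired analysis was possible because each genotype had 1 library. Members under 50 UMIs entered no main count of members past the fold, and those of 20 to 49 UMIs were counted at the minimum of 20 UMIs alone, which added *Fzd4* among members higher in the knockout.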

Other observations

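Knockout cells were also divided by a UMI of *Etv4* or *Etv5*, a division chosen after values were seen. *Sfrp1* was at 144 CPM in the 162 knockout cells with such a UMI and at 67.6 CPM in the 228 without, a ratio of 2.13 (1.66 to 2.74). The cells with a UMI were deeper, at a median of 7266 against 6210 UMIs. When positivity and levels were both read after thinning to 2000 UMIs, the ratio was 0.918 (0.475 to 1.66), on 14 and 62 *Sfrp1* UMIs. Thinning also moved cells between the groups, since 77 of 390 cells kept an *Etv4* or *Etv5* UMI, so depth and the changed division cannot be told apart. In control cells the ratio was 0.416 (0.205 to 0.758) on 11 UMIs in the 87 cells with a UMI.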
